A study of Mus musculus with 6 samples.

Results

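Fragments of the nuclear-encoded mature tRNAs for glutamate (tRNA-Glu) were examined in small RNA of primary pulmonary artery smooth muscle cells from wild-type mice. Cells kept in 3% O2 for 24 hours (hypoxia, n = 3) were compared with cells in standard normoxic culture (normoxia, n = 3), a design stated to search for tsRNAs (tRNA-derived small RNAs) that respond to low oxygen. Every library had been made by Pandora-seq, in which enzymes strip RNA modifications that block adapter ligation or reverse transcription, so no untreated library is available for comparison. The table holds tRNA fragments alone, and the smooth muscle identity of the cells could therefore not be checked against marker genes. Members were the sequences whose every annotation is mature-tRNA-Glu-CTC or mature-tRNA-Glu-TTC, the nuclear mature forms, which numbered 2439 of 38798 sequences of 15 to 45 nt. They carried 1476923 of 8966706 counts (16.5%), second among the amino acids to tRNA-Ala (19.8%) and ahead of tRNA-Gly (9.91%). Mitochondrial tRNA-Glu was not included. Another 34 sequences are shared with a second tRNA family (0.177% of all counts) and were left out.

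The mouse genome carries nuclear tRNA-Glu genes for both glutamate codons, one set with the anticodon CTC and the other with TTC. RefSeq on GRCm38.p6, the assembly of mm10, lists 12 Glu-CTC genes (n-TEctc) on 8 chromosomes and 8 Glu-TTC genes (n-TEttc) on 6, each 72 nt long. Of the Glu-CTC genes, 4 lie together on chromosome 1 between 171064164 and 171103114. A tRNA folds into an acceptor stem, a D arm, an anticodon arm and a T arm, and the mature molecule carries a CCA tail added after transcription, to which the amino acid is attached. Ribonucleases can cut it in the anticodon loop into a 5′ and a 3′ piece, or in the other loops into shorter ones. Angiogenin is the best known of these enzymes, and tRNA-Glu is among the familiar sources of such long 5′ pieces in mammalian cells. No gene sequences were used here, and no fragment was assigned to a single gene.

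The tRNAs were rebuilt by joining overlapping fragments of the table, and the Glu-TTC forms are shown because the positions of Glu-TTC fragments below refer to them. Capitals mark the anticodon, positions 34 to 36, counted from 1 at the 5′ end.
Glu-TTC, ACA form: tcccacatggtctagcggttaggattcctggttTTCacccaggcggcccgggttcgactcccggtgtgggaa
Glu-TTC, ATA form: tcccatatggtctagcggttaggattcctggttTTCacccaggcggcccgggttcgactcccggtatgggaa
The joined sequences are 72 nt long, the length RefSeq gives for the genes, and pair in full at the acceptor stem (1 to 7 with 65 to 71), the D stem (10 to 13 with 22 to 25), the anticodon stem (27 to 31 with 39 to 43) and the T stem (48 to 52 with 60 to 64), with G-T pairs allowed. Glu-CTC differs from either Glu-TTC form at 15 of 72 positions, 4 of them in positions 1 to 20, 5 in 21 to 36 and 6 in 37 to 72. The ACA and ATA forms of Glu-TTC, named here for their letters at positions 5 to 7, differ from each other at 2 positions that face each other in the acceptor stem. Of the 2439 members, 2232 matched 1 of the joined sequences or its CCA tail exactly, and they held 99.8% of the counts.

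Most of the tRNA-Glu signal came from the 5′ side of Glu-CTC. Glu-CTC alone accounted for 863 sequences and 12.0% of all counts in the table, Glu-TTC alone for 1372 sequences and 4.03%, and 204 sequences annotated to both for 0.394%. Among counts that could be assigned to 1 anticodon, Glu-CTC made up between 71.2% and 81.6% in the 6 libraries. By class, Glu-CTC internal fragments held 41.0% of the tRNA-Glu counts, Glu-CTC 5′ ends 32.1%, Glu-TTC 5′ ends 14.5% and Glu-TTC internal fragments 8.36%. Fragments with a CCA end held 1.58% for Glu-TTC and 1.27% for those of both anticodons. Fragments starting after the anticodon, at position 37 or later, made up 3.28% to 5.69% of the placed tRNA-Glu counts. Those extending past position 36 from any start made up 9.85% to 13.6%.

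The split between the anticodons is limited by the annotation of short sequences. All 4 sequences of 15 to 18 nt that begin Glu-CTC are assigned to both anticodons, so 5′ ends given for Glu-CTC start at 19 nt, while those of Glu-TTC start at 15 nt. Likewise, every fragment of the Glu-CTC sequence that starts at position 37 or later is assigned to both. The CCA-tailed members numbered 7, none longer than 18 nt, and 97.4% of their counts were 15 nt long. CCA-tailed fragments of other nuclear tRNAs reached 45 nt, with 14.2% of their counts at 15 nt. Longer CCA-tailed tRNA-Glu fragments were not analysed here, so levels of the 3′ side cover what the table assigns.

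**Figure D1:**
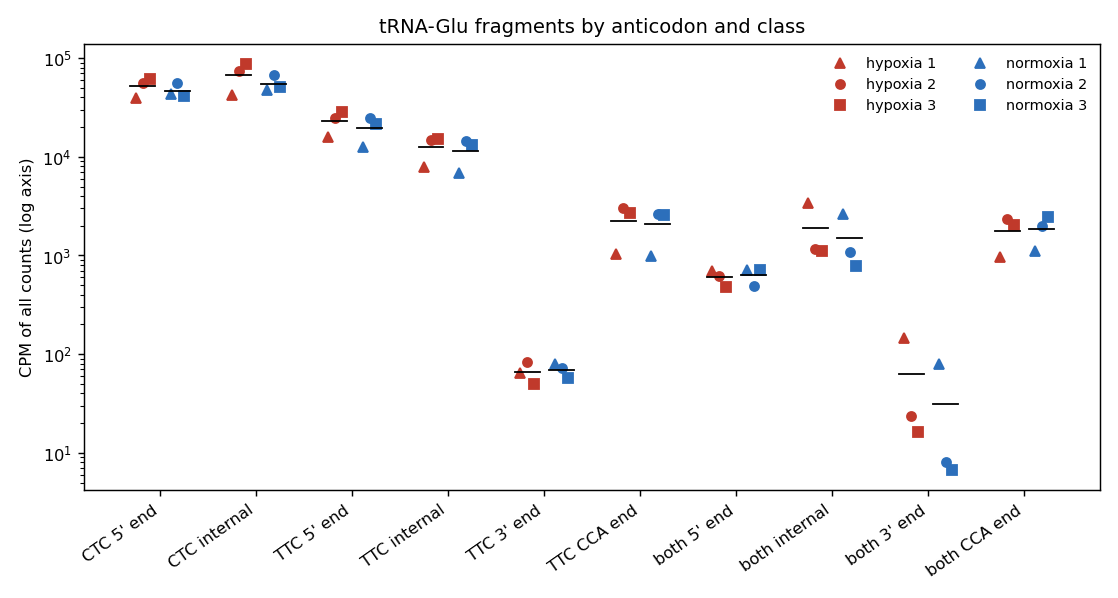
CPM of all counts (log axis) for the tRNA-Glu classes with a mean above 10 CPM in both groups, by anticodon; "both" marks sequences annotated to either anticodon, each point is 1 library and black lines are group means. In all 10 classes the hypoxia and normoxia points overlap, and both libraries numbered 1 (triangles) lie apart from the others in most classes.

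Levels are given as CPM, the counts per 1000000 of all counts in the library. Total tRNA-Glu stood at 111845, 176292 and 197389 CPM in hypoxia replicates 1 to 3, and at 116147, 168685 and 133139 CPM in normoxia replicates 1 to 3. The groups overlapped: 2 hypoxia libraries were above all normoxia libraries and 1 was below them all. The means were 161842 ± 44565 against 139324 ± 26810 CPM (SD, n = 3 each), and a two-sided exact permutation test gave p = 0.5, where 3 against 3 cannot go below 0.1. Same-numbered libraries gave ratios of 0.963, 1.05 and 1.48. CPM gives a fragment's share of the library's tRNA fragments, and in such bulk samples a change in the RNA per cell cannot be told apart from a change in how many cells supply it.

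Libraries differed in depth from 330787 to 2563749 counts, and the shallowest were both libraries numbered 1, hypoxia 1 with 510519 and normoxia 1 with 330787 counts. These libraries also resembled each other in fragment make-up. Hypoxia 1 correlated at 0.857 with normoxia 1 and at 0.471 and 0.454 with hypoxia 2 and 3 (log2 CPM over 6452 tested tsRNAs, a description across sequences). Where the numbers split a result, the values of these libraries are given beside it, and the part of depth or of a shared preparation was not tested. Pairs join libraries of the same number, and for numbers 2 and 3 the data did not show such a pairing.

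Among 5′ ends, those of Glu-CTC formed the larger class, with 39785, 55819 and 60825 CPM in hypoxia and 43273, 56461 and 41055 CPM in normoxia. The groups overlapped, and same-numbered libraries gave ratios of 0.919, 0.989 and 1.48 (exact p = 0.7).

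**Figure D2:**
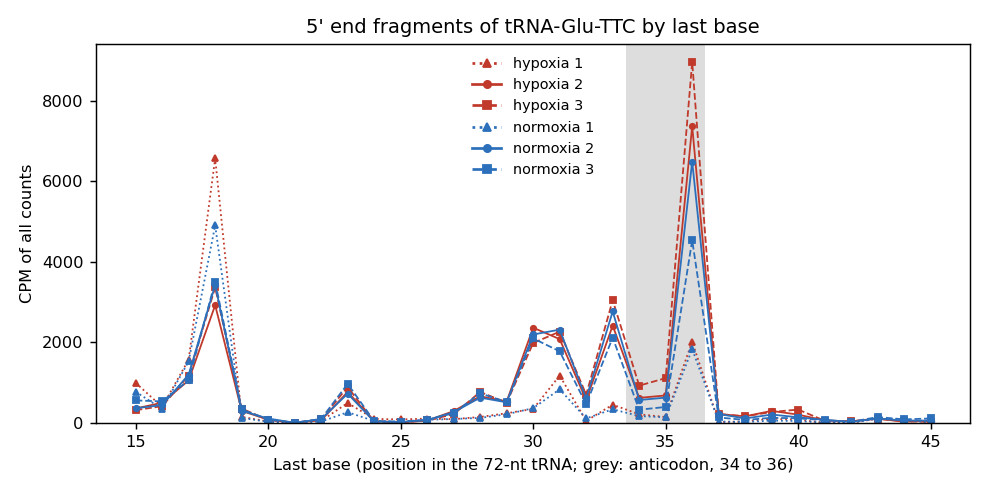
CPM of all counts for 5′ end fragments of tRNA-Glu-TTC by the position of their last base, 1 line per library; grey marks the anticodon. The profile peaks at 18 and 36, and the libraries numbered 1 (dotted) have the highest values at 18 and the lowest at 36.

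Glu-TTC 5′ ends had 15794, 24861 and 28435 CPM in hypoxia and 12667, 24680 and 21320 CPM in normoxia (exact p = 0.5). The class had a short form ending at 18, in the D loop, and a long form ending at 36, after the last anticodon base. Both are shown for the ACA form, whose first 18 and 36 bases were the 2 most abundant Glu-TTC 5′ ends.
Glu-TTC 5′ end, 18 nt: tcccacatggtctagcgg
Glu-TTC 5′ end, 36 nt: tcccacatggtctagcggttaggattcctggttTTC
The 18-nt fragment had 3620, 1923 and 2369 CPM in hypoxia and 2709, 2420 and 2329 CPM in normoxia, highest in the libraries numbered 1. The 36-nt fragment had 1028, 4329 and 5259 CPM in hypoxia and 792, 3514 and 2378 CPM in normoxia. Hypoxia was the higher member in 3 of 3 pairs, but the libraries numbered 1 were far below the rest of their group, so the groups overlapped (log2 0.65, SE 0.92, edgeR quasi-likelihood test, unadjusted p = 0.50). It was 0.17 without hypoxia replicate 3 and 1.26 without normoxia replicate 2. With the replicate number as a block in edgeR the same fragment had a log2 difference of 0.60 (SE 0.27, unadjusted p = 0.031, adjusted p = 0.760 over all tsRNAs tested).

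Counted over all Glu-TTC 5′ ends, those ending at 18 made up 41.6%, 11.8% and 11.8% in hypoxia and 38.7%, 13.9% and 16.4% in normoxia. Among Glu-TTC 5′ ends of at least 19 nt, those ending at 36 made up 32.1%, 36.7% and 38.6% in hypoxia and 35.7%, 33.6% and 28.9% in normoxia. Neither the ends at 18 (exact p = 0.8) nor those at 36 (exact p = 0.4) separated hypoxia from normoxia.

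The 2 sequence forms of Glu-TTC could be followed separately through their 5′ ends, since position 6 tells them apart. The ACA form supplied 52.5%, 59.6% and 60.4% of Glu-TTC 5′ ends in hypoxia and 50.4%, 57.5% and 55.4% in normoxia, the higher share in 6 of 6 libraries. Their ends fell at the same places in somewhat different proportions. Ends at 18 made up a larger share of the ACA form than of the ATA form, by 5.81 ± 1.93 percentage points (SD of the difference, 6 libraries), and ends at 36 a smaller one, by 2.35 ± 1.33 points, each in 6 of 6 libraries. Each had p = 0.03125 in a two-sided exact sign-flip permutation test, the smallest that 6 libraries allow, and 0.0469 after Benjamini-Hochberg adjustment over 15 comparisons of this kind. Both shares were taken over all 5′ ends of a form, so a larger share at 18 by itself lowers the share at 36. The difference at 36 is therefore not a separate result, and it was not tested among 5′ ends of at least 19 nt. The positions were picked after the profiles had been seen, and the 6 libraries are treated as independent. With the 3 same-numbered pairs as units, the smallest p such a test allows is 0.25, so this p and those of the same kind below rest on counting the libraries singly.

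Internal fragments are those annotated without a 5′, 3′ or CCA end. Some of them in Glu-TTC still reach into the CCA tail (154 to 254 CPM ending at position 73). In Glu-CTC the class included a short piece that runs from the last base of the D loop to the anticodon. It is shown with a form 1 base shorter because they were the 2 internal Glu-CTC sequences with the highest mean CPM.
Glu-CTC internal, positions 21 to 36: aggattcggcgctCTC
Glu-CTC internal, positions 21 to 35: aggattcggcgctCT
The 16-nt fragment made up 16.0% of Glu-CTC internal counts in hypoxia 1 and 20.7% in normoxia 1, and 32.1% to 35.5% in the other 4 libraries. It had 6742, 25247 and 30753 CPM in hypoxia and 9876, 21606 and 16374 CPM in normoxia. The lowest library of each group was the one numbered 1, and hypoxia was the higher member in 2 of 3 pairs (log2 0.42, SE 0.84, adjusted p = 0.9999). The 15-nt form had 1453, 5627 and 7455 CPM in hypoxia against 1684, 5108 and 3880 CPM in normoxia, with the same order within each group (log2 0.45, SE 0.87).

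In Glu-TTC the internal fragment with the highest mean CPM was another one. It starts at position 7, the last base of the acceptor stem, and ends at the anticodon, so it covers the whole D arm; a longer one starts at position 5 of the ATA form.
Glu-TTC internal, positions 7 to 36: atggtctagcggttaggattcctggttTTC
Glu-TTC internal, ATA form, positions 5 to 36: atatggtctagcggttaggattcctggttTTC
The 30-nt fragment, present in both forms, had 505, 3426 and 3353 CPM in hypoxia and 553, 3432 and 2803 CPM in normoxia. Each library numbered 1 was far below the others of its group, and the groups overlapped (log2 0.07, SE 1.03). The 32-nt fragment had 552, 549 and 391 CPM in hypoxia and 466, 350 and 389 CPM in normoxia. It was the higher in hypoxia in 3 of 3 pairs, the third by less than 3 CPM (log2 0.30, SE 0.47).

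Across all internal fragments starting at or before position 36, starts at 21 made up 21.4%, 45.3% and 47.5% of Glu-CTC in hypoxia and 26.3%, 42.9% and 43.3% in normoxia. Of Glu-TTC the same position gave 4.08% to 9.68%. Starts at 7 made up 13.7%, 44.5% and 44.8% of Glu-TTC in hypoxia and 14.1%, 44.7% and 43.5% in normoxia, against 0.58% to 1.71% of Glu-CTC. Starts at 5 made up 12.5% to 15.4% of Glu-TTC and 0.23% to 0.51% of Glu-CTC. Each of these 3 positions separated the anticodons in 6 of 6 libraries (exact sign-flip permutation p = 0.03125, adjusted 0.0469). The positions were picked from the peaks of these same profiles, which favours such a difference, and neither the p nor its adjustment allows for that choice. Ends at 36 led in both anticodons, with 30.1% to 52.1% of Glu-CTC and 30.6% to 40.7% of Glu-TTC internal fragments, and that share was higher in Glu-CTC in 4 of 6 libraries (exact p = 0.125).

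**Figure D3:**
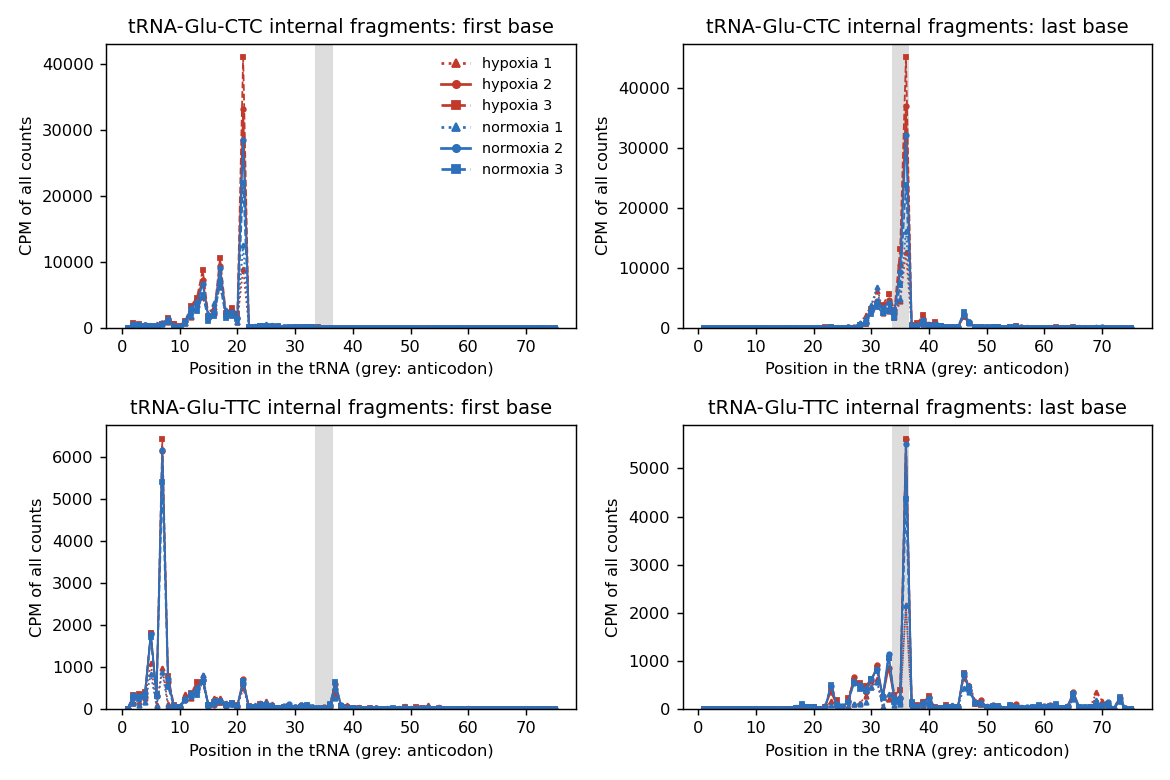
CPM of all counts for internal fragments by first base (left) and last base (right) for tRNA-Glu-CTC (top) and tRNA-Glu-TTC (bottom), 1 line per library; grey marks the anticodon. First bases peak at 21 in Glu-CTC and at 7 in Glu-TTC (at 5 in hypoxia 1), whereas last bases peak at 36 in both.

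The first base of internal fragments was often A. In Glu-CTC, A came first in 48.4 ± 10.5% of internal counts (SD over 6 libraries), while A makes up 9.09% of positions 2 to 34, the range in which Glu-CTC internal fragments started. In Glu-TTC it came first in 62.0 ± 9.27%, against 13.6% of positions 2 to 60, the range of its starts. Starts at 21 in Glu-CTC and at 5 and 7 in Glu-TTC are all A, so these values restate the peaks in letters. C came first in 6.56 ± 0.47% of Glu-CTC and 14.8 ± 2.89% of Glu-TTC internal counts, and it makes up 24.2% and 32.2% of those positions.

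The 3′ side of the molecule was sparse. The 3′ ends that start right after the anticodon and lack CCA are shown for Glu-TTC, since they are the counterparts of the 36-nt 5′ ends.
Glu-TTC 3′ end, ACA form: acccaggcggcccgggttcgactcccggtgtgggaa
Glu-TTC 3′ end, ATA form: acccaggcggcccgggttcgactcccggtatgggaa
The ACA 3′ end had 13.7, 11.7 and 8.17 CPM in hypoxia and 15.1, 22.5 and 12.9 CPM in normoxia, and the matching 36-nt 5′ end was at least 792 CPM in every library. Hypoxia was the lower member in 3 of 3 pairs, but the groups overlapped (log2 -0.68, SE 0.69, adjusted p = 0.9999). The ATA 3′ end had 9.79, 17.6 and 5.25 CPM in hypoxia and 9.07, 11.7 and 13.5 CPM in normoxia, higher in hypoxia in 2 of 3 pairs (log2 -0.13, SE 0.80). The same pieces with CCA would be 39 nt long and were not analysed here, so no ratio of the 5′ to the 3′ pieces is given.

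The CCA-tailed members were in effect 3 sequences of 15 nt that begin inside the T stem, shown with the CCA in capitals.
Glu-TTC CCA end, ACA form: ccggtgtgggaaCCA
Glu-TTC CCA end, ATA form: ccggtatgggaaCCA
CCA end of both anticodons: ccggtcagggaaCCA
The last of these matches the Glu-CTC sequence and had 970, 2319 and 2019 CPM in hypoxia and 1097, 1990 and 2459 CPM in normoxia. The ACA form had 662, 2143 and 1933 CPM in hypoxia against 732, 1912 and 1730 CPM in normoxia, and the ATA form 294, 771 and 648 CPM against 215, 613 and 690 CPM. In all 3 the libraries numbered 1 were the lowest of their groups and hypoxia and normoxia overlapped, with log2 differences of -0.09 (SE 0.70), 0.10 (SE 0.78) and 0.12 (SE 0.77).

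Internal and 3′ end fragments assigned to both anticodons were most frequent in the libraries numbered 1. Their internal class reached 3426 CPM in hypoxia 1 and 2648 CPM in normoxia 1, against 774 to 1169 CPM in the other 4 libraries. The leading sequence runs from the T loop into the 3′ strands of the T and acceptor stems.
Internal, positions 55 to 69 of Glu-CTC: cgattcccggtcagg
It had 617, 199 and 253 CPM in hypoxia and 514, 193 and 47.9 CPM in normoxia, higher in hypoxia in 3 of 3 pairs, though nearly level in the pair numbered 2 (log2 0.59, SE 0.73, adjusted p = 0.9999). Sequences ending at 69 made up 64.9% and 60.8% of this internal class in the libraries numbered 1 and 26.4% to 39.9% in the others.

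For hypoxia against normoxia, the low-count filter of edgeR kept 676 of the 2439 members, which held 98.5% of the tRNA-Glu counts, among 6452 tsRNAs tested. With the group as the only term, 0 of the 676 passed a Benjamini-Hochberg adjusted p of 0.05, where the background over all tested tsRNAs was also 0% in each direction. At an unadjusted p under 0.05, 0 members were called higher or lower, beside backgrounds of 0.279% and 0.418%. Again 0 members passed the adjusted threshold in DESeq2's Wald test (2 higher and 0 lower unadjusted, backgrounds 0.527% and 0.775%) and in limma's voom fit (4 higher and 0 lower, backgrounds 0.868% and 0.821%). With the replicate number as a block in edgeR, 0 passed the adjusted threshold (backgrounds 0.0775% in each direction), and at an unadjusted p under 0.05 there were 22 members higher in hypoxia and 1 lower. These are 3.25% and 0.148% of the tested members, where the background was 3.41% higher and 2.98% lower.

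The tested members lay slightly to the hypoxia side. Of the 676, 426 (63.0%) had a log2 difference above 0, with a median of 0.17, while 51.3% of all tested tsRNAs were above 0, with a median of 0.02. The median standard error of a member was 0.86. By class, 193 of 262 Glu-CTC internal fragments (73.7%) and 156 of 272 Glu-TTC internal fragments (57.4%) were above 0. Glu-CTC 5′ ends had 12 of 28 above 0 and Glu-TTC 5′ ends 34 of 61. Hypoxia was higher in 3 of 3 pairs for 128 members (18.9%; background 15%) and lower in 3 of 3 for 51 (7.54%; background 13.4%). The groups did not overlap for 17 members with hypoxia higher (background 2.32%) and 9 with hypoxia lower (background 2.51%). The side depended on single libraries, since the median was -0.08 without normoxia replicate 1, -0.05 without hypoxia replicate 3 and 0.50 without normoxia replicate 2. Members overlap in sequence and come from the same few tRNAs, so these counts do not stand for independent observations.

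The members with the smallest unadjusted p were of low abundance. Among those with a mean of at least 10 CPM, the 3 highest-ranked on the hypoxia side are shown to place them on the tRNA.
Glu-TTC internal, ATA form, positions 37 to 69: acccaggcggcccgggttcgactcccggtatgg
Glu-TTC internal, positions 21 to 55: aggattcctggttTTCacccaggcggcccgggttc
Glu-CTC internal, positions 10 to 36: gtctagtggttaggattcggcgctCTC
The first, a 3′-side fragment that stops 3 bases before the end, had 33.3, 18.3 and 22.2 CPM in hypoxia and 15.1, 4.51 and 7.98 CPM in normoxia. All hypoxia libraries lay above all normoxia libraries, with a log2 difference of 1.50 (SE 0.68, unadjusted p = 0.059, adjusted p = 0.9999). The second had 15.7, 54.2 and 17.5 CPM against 18.1, 6.31 and 7.98 CPM (log2 1.67, SE 0.82), and hypoxia 2 alone was far above the rest. Without hypoxia replicate 2 its log2 difference was 0.73. The third had 56.8, 88.9 and 131 CPM against 60.5, 45.5 and 20.9 CPM (log2 1.28, SE 0.68), with the pair numbered 1 level and the others higher in hypoxia.

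On the normoxia side the smallest unadjusted p belonged to 3 Glu-TTC fragments, 2 of them with groups that did not overlap.
Glu-TTC 5′ end, ACA form, 44 nt: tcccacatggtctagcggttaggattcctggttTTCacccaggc
Glu-TTC internal, ACA form, positions 4 to 18: cacatggtctagcgg
The 44-nt fragment, which runs through the anticodon arm, had 33.3, 20.3 and 22.2 CPM in hypoxia and 42.3, 44.6 and 41.1 CPM in normoxia (log2 -0.84, SE 0.59, unadjusted p = 0.194, adjusted p = 0.9999). The 15-nt fragment had 27.4, 18.3 and 11.7 CPM against 36.3, 37.4 and 30.7 CPM (log2 -0.96, SE 0.61, unadjusted p = 0.155). In both, hypoxia lay below normoxia in every library without overlap, and neither was called. Ranking by p favours such fragments. Over the 676 tested members, 9 had hypoxia lower without overlap, where the background was 2.51%. The third, positions 15 to 30 of Glu-TTC, had 3.92, 7.41 and 7 CPM in hypoxia and 24.2, 4.06 and 28.2 CPM in normoxia, with normoxia 2 as low as the hypoxia libraries (log2 -1.47, SE 0.92). Without normoxia replicate 3 its log2 difference was -0.42.

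Summing the counts of each class gave no call either. Of the 12 tRNA-Glu sums by anticodon and class, 10 passed the filter among 276 sums over all tRNA families, and 0 of the 10 were called by edgeR, DESeq2 or voom at the adjusted or the unadjusted threshold (edgeR backgrounds at an unadjusted p under 0.05, 0.725% higher and 0.362% lower). Log2 differences of the large classes were 0.23 (SE 0.65) for Glu-CTC 5′ ends, 0.39 (SE 0.73) for Glu-CTC internal fragments, 0.25 (SE 0.73) for Glu-TTC 5′ ends and 0.14 (SE 0.76) for Glu-TTC internal fragments. Leaving out 1 library turned the direction of each of these 4, with ranges of -0.10 to 0.62, -0.016 to 0.81, -0.15 to 0.66 and -0.29 to 0.56. With the replicate number as a block the standard errors of these 4 fell to between 0.13 and 0.23, and the differences were 0.18, 0.28, 0.28 and 0.17. The smallest p under the block belonged to 3′ ends of both anticodons, which had 147, 23.4 and 16.3 CPM in hypoxia and 78.6, 8.12 and 6.75 CPM in normoxia. Hypoxia was higher in 3 of 3 pairs (log2 1.26, SE 0.44, unadjusted p = 0.030, adjusted p = 0.372), on 218 counts in all. Without the block the log2 difference was 1.14 (SE 0.97, unadjusted p = 0.28), and it ranged from 0.27 without hypoxia replicate 1 to 2.31 without normoxia replicate 1. It was the 1 sum of 10 under an unadjusted p of 0.05 with the block, where the background was 5.80% higher and 5.07% lower.

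**Figure D4:**
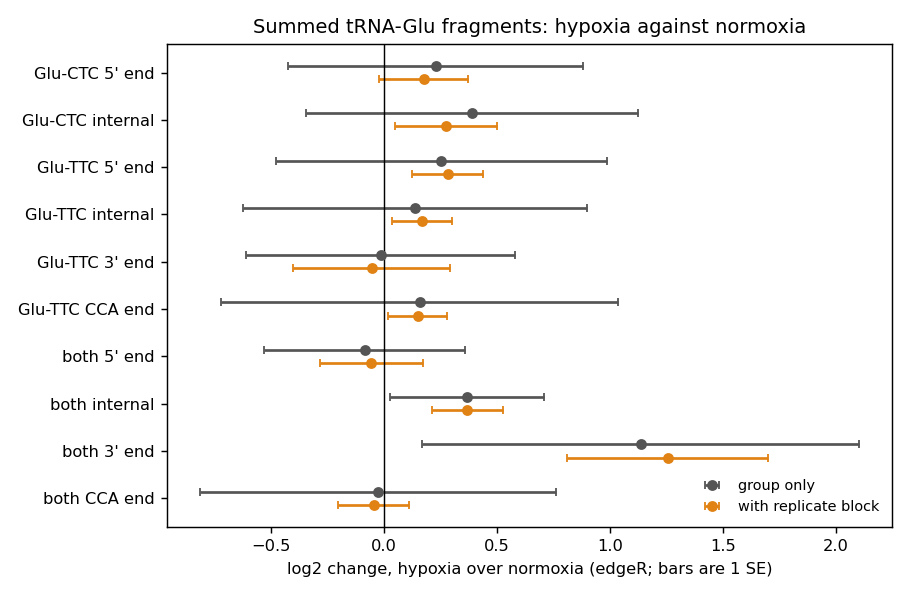
Log2 difference of hypoxia over normoxia for the 10 summed tRNA-Glu classes that passed the filter, with bars of 1 SE, from edgeR with the group alone (grey) and with the replicate number as a block (orange). Each fit put the 4 large classes between 0.14 and 0.39, and none of the 10 was called in either.

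Over 27 levels and 63 shares of tRNA-Glu, 0 had groups that did not overlap, and the smallest exact p was 0.4 for levels and 0.2 for shares.

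Hypoxia was also compared between tRNA-Glu and selected other families, tRNA-Gly as another source of long 5′ ends, and tRNA-Asp and tRNA-Lys. The log2 ratio of tRNA-Glu to tRNA-Gly was 0.39, 0.99 and 0.69 in hypoxia and 0.35, 0.69 and 0.58 in normoxia, higher in 3 of 3 pairs by a mean of 0.15 (exact p = 0.4). The ratio to tRNA-Lys was 1.16, 1.57 and 1.77 against 0.88, 1.53 and 1.35, also higher in 3 of 3 pairs, by a mean of 0.25 (exact p = 0.4). The ratio to tRNA-Asp was 1.28, 3.86 and 4.06 against 1.74, 4.01 and 3.87, a mean difference of -0.14 (exact p = 0.8), and both libraries numbered 1 were more than 2 log2 units below the others. For 5′ ends alone the mean differences ranged from 0.02 to 0.10 (exact p = 0.6 to 0.9). None of the 6 ratios separated the groups.

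In make-up, tRNA-Glu differed from some of those families in every library. Among 5′ ends, lengths of 30 to 36 nt made up 56.2 ± 16.0% for tRNA-Glu, 14.9 ± 1.97% for tRNA-Asp and 4.41 ± 0.90% for tRNA-Lys (mean and SD over 6 libraries). tRNA-Glu was above each of those in 6 of 6 libraries (exact sign-flip permutation p = 0.03125, adjusted 0.0469). For tRNA-Gly the share was 58 ± 7.35%, and it lay 1.77 ± 10.1 points above tRNA-Glu, a difference within the spread (exact p = 0.656). 5′ ends as a class made up 47.7 ± 1.79% of tRNA-Glu and 39.8 ± 7.25% of tRNA-Gly, higher in tRNA-Glu in 6 of 6 libraries, whereas the same comparison with tRNA-Asp and tRNA-Lys went either way between libraries (exact p = 0.25 each).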

How the data were processed

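Values are raw counts per sequence, as deposited by the authors, in 1 table of tRNA fragments covering 6 libraries; per the labels' protocols the RNA was enzyme-treated by Pandora-seq. The submitters' processing notes name mm10. The labels and notes name no aligner, annotation tool or tRNA reference (not given in the sources used here). Per the design text the replicates are biological. Counts were tested as deposited with edgeR 4.0.16 in R 4.3.3 (TMM scaling, filterByExpr, quasi-likelihood F-test, group as the only term, Benjamini-Hochberg adjusted p under 0.05 over all tsRNAs tested). DESeq2 1.42.0, limma 3.58.1 voom, other scalings, other filters and left-out libraries were alternatives. Levels are CPM of all counts. Wilson 95% intervals of shares were at most 3.23 points wide on either side and cover counting error only.

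The replicate numbers were used as pairs and as the block. Deviations from the group means over 6452 tsRNAs correlated between same-numbered libraries at 0.771, 0.512 and 0.434. The libraries numbered 1 enter these means, so the values for numbers 2 and 3 cannot show pairing by themselves. With the libraries numbered 1 left out, the correlation fell to -0.02. In log2 CPM, hypoxia 2 and hypoxia 3 were both closer to normoxia 2 (0.857 and 0.842) than to normoxia 3 (0.801 and 0.782). The data therefore showed a likeness of the libraries numbered 1, and a pairing of numbers 2 and 3 was not shown. The tRNAs were joined from fragments overlapping by at least 20 nt. Named sequences are the 2 most abundant of each anticodon and class, any called, and the 3 with the smallest unadjusted p in each direction at a mean of at least 10 CPM; those of classes under 10 CPM were left out of the text, and some single sequences are not reported here. Members and lists were chosen with earlier results of these data known, and the positions followed for ends and starts were picked from these profiles.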

Additional observations from a re-analysis of the deposited data

How the results depend on the processing

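In every setting run (the replicate block, other scalings, filters and tools, each library left out, replicates 2 and 3 only) 0 tRNA-Glu tsRNAs and 0 tRNA-Glu sums passed the adjusted threshold. Over all features, most settings also gave 0 calls. The most tsRNAs were called in DESeq2 with the block, 18 higher and 13 lower of 3450 with an adjusted p. That fit gave an adjusted p to 406 of the 676 tRNA-Glu tsRNAs, so the rest could not pass. The most sums were called with replicates 2 and 3 only, 3 higher and 10 lower of 269. Single values changed direction mostly when a library was left out: 30 of the 339 recomputed log2 differences of named tsRNAs did, 25 of them under a left-out library or replicates 2 and 3 only, and 13 of 89 levels, shares and family ratios. The cause was not tested. With the replicate block in edgeR, an unadjusted p under 0.05 was reached by 22 members with hypoxia higher and 1 with it lower. Without the block the numbers were 0 and 0, and no call changed. The background over all tested tsRNAs rose as well, from 0.279% higher and 0.418% lower to 3.41% and 2.98%.

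Leaving out 1 library at a time moved the difference between hypoxia and normoxia from -2.40 to 0.032 points for the 5′ end share and from -2.04 to 3.13 points for the Glu-CTC share. For the log2 ratio of tRNA-Glu to tRNA-Asp, the difference between hypoxia and normoxia moved from -0.87 to 0.75. For 5′ ends alone, the difference in log2 ratio moved from -1.09 to 1.34 against tRNA-Asp and from -0.12 to 0.33 against tRNA-Lys. With replicates 2 and 3 only, the difference in the log2 ratio to tRNA-Asp was 0.019.

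Under left-out libraries, log2 differences ran from -0.034 to 0.91 and from -0.084 to 0.95 for the Glu-CTC internal fragments at 21 to 36 and 21 to 35, and from -0.44 to 0.60 for Glu-TTC at 7 to 36. They ran from -0.98 to 0.16 for the ATA 3′ end, and from -0.32 to 0.55, from -0.32 to 0.54 and from -0.47 to 0.33 for the ACA, ATA and shared CCA ends. Among sequences of both anticodons they ran from -1.13 to 0.42 for positions 49 to 69 and from -1.12 to 2.90 for 49 to 72.

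The 18-nt Glu-TTC 5′ end lay near 0 throughout. Its log2 difference ran from -0.16 to 0.15 under left-out libraries and was -0.18 with replicates 2 and 3 only. It was -0.0033 with DESeq2 size factors in edgeR and -0.0059 with the block added. In DESeq2 itself it was -0.0037, or -0.0063 with the block, and in voom with the block it was -0.014.

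The libraries numbered 1, the shallowest, held the fewest tRNA-Glu sequences, 1203 in hypoxia 1 and 1020 in normoxia 1 against 1435 to 1753 in the others. The part of depth in this was not tested. The 1763 members below the filter had a median of 7 counts over all 6 libraries. Fitted without a filter, all 2439 gave 0 calls. Unadjusted p-values under 0.05 in that edgeR fit numbered 14 on the hypoxia side and 11 on the normoxia side. Over all 38798 sequences they numbered 156 and 169.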
